A study of Homo sapiens with 12 samples.

Results

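Tumors of mice that received acadesine together with rituximab were set against tumors of mice that received only the vehicle, 3 tumors against 3. The tumors were chosen by their sample titles, Combination and Control with replicates 1 to 3, and they made 6 of the 12 tumors of the study. All 12 were xenografts of JEKO-1, an established human cell line of mantle cell lymphoma, grown under the skin of CB17 SCID mice. The methods give female mice of 6 to 8 weeks, which were inoculated and then treated for 18 days once tumors were palpable. The age at treatment is not given. The combination group received acadesine at 400 mg/kg and rituximab at 10 mg/kg once a week, and the labels give acadesine as daily where the methods of the study give 5 days a week. The other 6 tumors came from mice given only acadesine or only rituximab at these doses, and they entered the same fit. The 3 tumors of a group were representative ones of a cohort of 6 mice, all from 1 cell line, and SCID mice lack functional B and T cells of their own. Below, the control tumors are called C1 to C3 and the combination tumors AR1 to AR3, by their replicate number.

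Acadesine is a nucleoside that cells take up and phosphorylate to a mimic of AMP, which activates AMPK, the kinase that senses low energy. Rituximab is an antibody that binds CD20 on B cells and marks them for complement and for cells with Fc receptors. Mantle cell lymphoma is a tumor of mature B cells that have already rearranged their antigen receptor genes, and it is known for cyclin D1 and for signals from the B cell receptor and NF-kB, which turn on survival genes.

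RNA of each tumor was hybridised to 1 Affymetrix HG-U219 array, and the deposited RMA values are in log2 units, from 3.09 to 14.3, where a difference of 1 is a change of 2-fold. Each of 18239 genes was read by the probe set with the highest mean, and the level of a gene can be compared between tumors but not with that of another gene. Array medians lay between 4.59 and 4.66, and combination and control tumors correlated over genes at r from 0.989 to 0.994, where genes are not independent replicates. In bulk tumor RNA, fewer cells of a type and less RNA per cell cannot be told apart, and mouse RNA can bind to a human probe where the sequence is alike. The markers of the labelled cell type were present: MS4A1, which encodes CD20, was at 12.15, 12.22 and 12.2 in the control tumors and at 11.93, 11.86 and 12.06 in the combination tumors. Of 15 markers of B cells and mantle cell lymphoma, 1 was called lower, BANK1 (6.67%, beside 1.33% of all genes), and none higher. In 5 of the 15 all combination tumors lay below all controls, beside 9.08% of all genes, and in 2 above them, beside 9.42%.

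The combination changed a limited set of genes, and in both directions. At an adjusted p under 0.05 in limma (Benjamini-Hochberg over all genes), 450 of 18239 genes were called, 2.47% of those tested, with 208 higher (1.14%) and 242 lower (1.33%). The median size of a called change was 0.78 in log2 units for the genes that rose and 0.63 for those that fell, beside 0.11 over all genes. More rises than falls were large: 46 genes were more than 2-fold higher and 32 more than 2-fold lower, and 7 against 1 passed 4-fold. Among the 6080 brightest genes by mean level 97 rose and 172 fell, among the 6079 of middle level 103 and 69, and among the 6080 dimmest 8 and 1. All 3 combination tumors lay on one side of all 3 control tumors in 445 of the 450 called genes, and in 18.5% of all genes tested (9.42% higher and 9.08% lower).

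**Figure D1:**
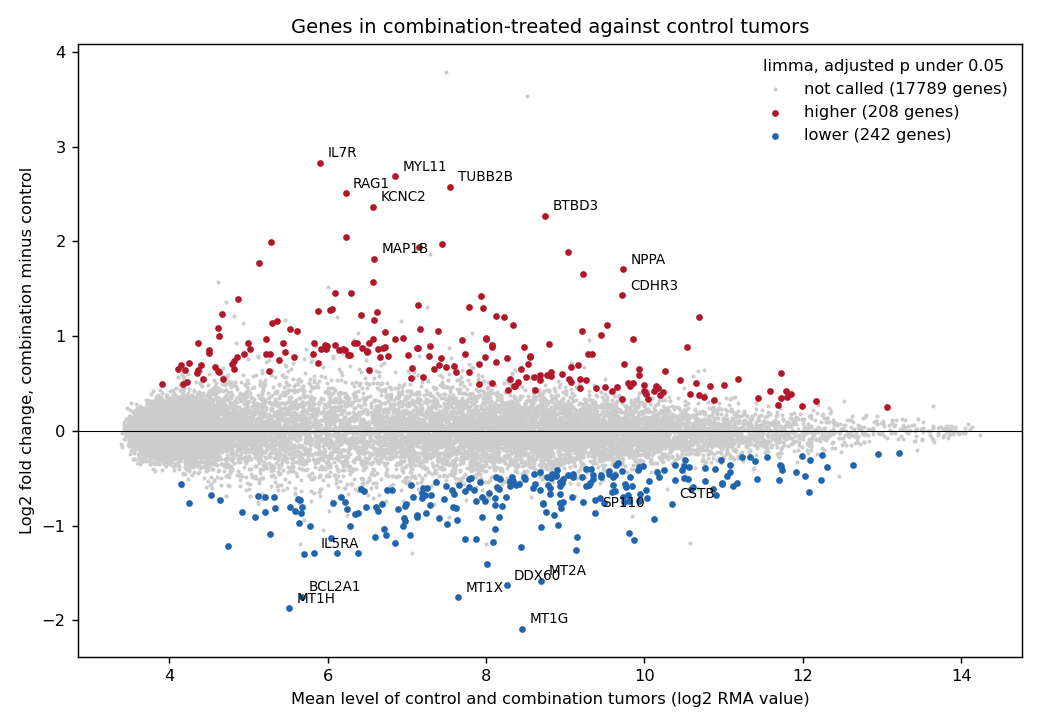
Each point is 1 of 18239 genes, with its mean log2 level over control and combination tumors on the horizontal axis and its log2 fold change, combination minus control, on the vertical axis. The 208 genes called higher reach up to 2.83 (IL7R) and the 242 called lower down to -2.09 (MT1G), and the grey points are genes that did not pass the test in limma.

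The 3 tumors of a group were not alike, and the counts depended on them. AR2 lay farthest from the controls in 188 of the 242 genes called lower, and C2 was the control nearest to the combination in 157 of them. Of the 208 genes called higher, AR1 was farthest in 90, and C2 was the nearest control in 102. With C1 or C3 left out limma called 196 or 148 genes, with AR1 or AR2 left out 235 or 140, and with C2 or AR3 left out 576 or 376. The calls of 99 genes, 48 higher and 51 lower, held in each of these 6 fits, and 28 calls held in none of them. Where a gene named below lost its call in any of them, the tumors concerned are given with it.

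AR2 and AR3 also carried transcripts of skeletal muscle, a tissue that lies beside a tumor under the skin. The mean log2 level of 47 muscle genes stood at -0.02, 0.96 and 0.44 relative to the control mean in AR1, AR2 and AR3, and at -0.02, 0.03 and -0.01 in C1, C2 and C3. MYL11, a myosin light chain of fast muscle, was at 5.51, 5.61 and 5.4 in the control tumors and at 5.87, 10.77 and 7.95 in the combination tumors, so that AR1 lay near the controls and AR2 far above them. Its log2 fold change was 2.69 (adjusted p = 0.0302 in limma), and leaving out C1, C3, AR2 or AR3 ended the call (adjusted p from 0.0649 to 0.124). TNNI2, a troponin of fast muscle, was at 4.2, 4.56 and 4.1 against 4.18, 7.76 and 6.9, high in the same tumors, and its change of 1.99 became -0.11 with AR1 alone. That call (adjusted p = 0.0487) ended when C1, C2, C3, AR2 or AR3 was left out (adjusted p from 0.0551 to 0.315). LDB3, of the muscle Z-disc, was high in AR1 too, at 7.0, 7.76 and 6.92 in the control tumors and 8.48, 8.94 and 8.52 in the combination tumors (1.42, adjusted p = 0.00185). In all 4 of the 47 muscle genes were called higher and none lower, 8.51% higher beside 1.14% of all genes, with a median of 0.16. Not all members rose: 9 of the 47 were negative, down to -0.55, with MYH1, MYF6, FBXO32 and TRIM63 among them. The count of muscle genes called was 7 without AR1, 3 without C2 and 1 in each of the other 4 fits.

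Of 23 markers of fibroblasts and matrix 1 was called, 4.35% beside 1.14% of all genes higher, while 8 were negative and the median was 0.05. It was COL3A1, a fibrillar collagen, higher by 0.72 in log2 units (adjusted p = 0.00483 in limma). It was at 3.76, 4.06 and 3.85 in the control tumors and 4.44, 4.53 and 4.86 in the combination tumors, near the lowest value of the data, 3.09. The mean level of the list was 0.14 in C2, above AR1 at 0.02 and AR2 at 0.07 and below AR3 at 0.15. No marker of endothelium (15), macrophages and granulocytes (20), adipocytes (11), erythrocytes (7), keratinocytes (9) or T and NK cells (14) was called. At an unadjusted p under 0.05 in limma there was 1 of the macrophage and granulocyte markers and 1 of the T and NK cell markers, beside 2527 of all 18239 genes. With the muscle level as a term in the model, limma called 99 genes, 71 higher and 28 lower, and 91 of them were among the 450. Of the genes described here 61 lost their call in that fit, among them DDX60, IFI44 and CD5 (adjusted p = 0.125 each), BCL2A1 (0.108), CD40 (0.0685), SP140 (0.0623) and RCAN2 (0.153), and all 450 genes kept their sign. When AR1 alone was set against the controls, 449 of the 450 genes kept the sign of their change, the exception being TNNI2. AR1 was among the tumors that gave these calls, and in 445 of the 450 genes all combination tumors lay beyond every control. The kept sign was thus nearly fixed by how the genes were picked and is no separate check. AR1, whose muscle level was that of the controls, is pointed out below where it bears on a result, and for several lists the count with the muscle level in the model is given. In that model no gene was called in the lists of CD40 and TNF receptor signalling, Toll-like receptors or calcium signalling. The same held for the lists of chemokines and homing receptors, B cell receptor signalling and TXNIP. The lists of inflammasomes, KLF factors, mTOR brakes and B cell surface antigens held 1 call each, and that of interleukin receptors 3. Whether muscle RNA caused the lost calls was not tested.

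**Figure D2:**
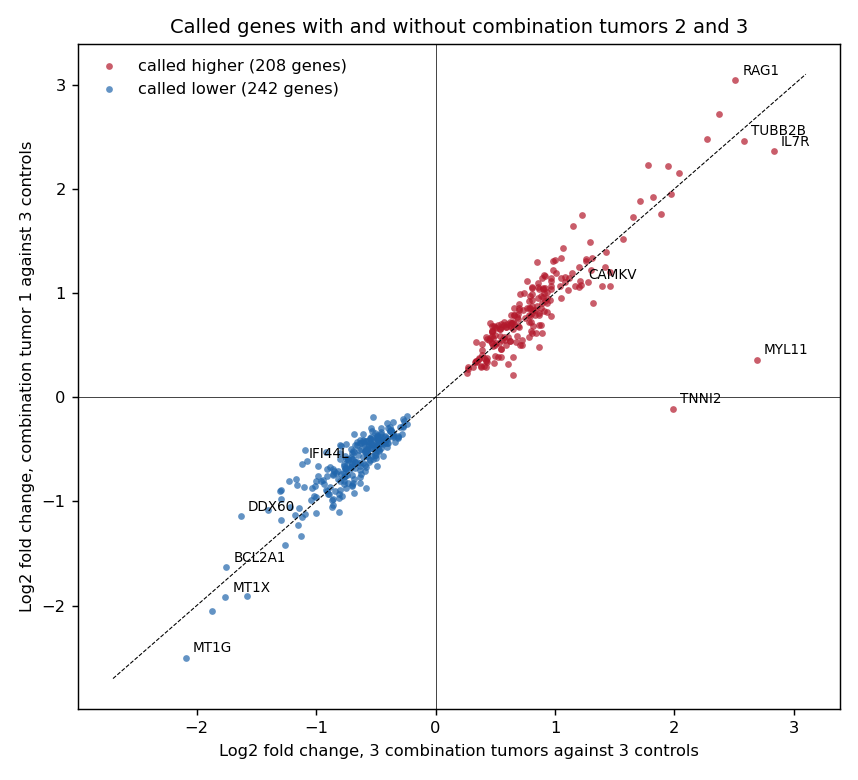
Each point is 1 of the 450 called genes, with the log2 fold change from all 3 combination tumors on the horizontal axis and from AR1 alone on the vertical axis, both against the 3 control tumors, and the dashed line marks equal values. With AR1 alone MYL11 is at 0.36 and TNNI2 at -0.11, while MT1G is at -2.5 and DDX60 at -1.14.

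Among the called genes the largest rise was that of a receptor of early lymphocytes. IL7R encodes the receptor chain through which interleukin 7 acts on immature lymphocytes, and mature B cells normally lack it. Its log2 value was 4.26, 4.86 and 4.36 in the control tumors and 6.85, 8.04 and 7.07 in the combination tumors. The tumors given 1 drug were at 4.55, 4.55 and 5.01 with acadesine and 4.89, 4.58 and 4.97 with rituximab, near the controls and below every combination tumor. The log2 fold change was 2.83 (SE 0.246, adjusted p = 3.54e-06 in limma, the smallest p of all genes), a 7.09-fold rise, and 2 of 2 other probe sets moved the same way. It was 2.36 with AR1 alone. Of the other probe sets, 62.7% over all genes and 86.1% over called genes moved the same way as the one read. The combination also differed from acadesine (adjusted p = 1.41e-05) and from rituximab (adjusted p = 2.94e-05), in fits where 2.45% and 2.82% of all genes were called. CAPSL, the gene next to IL7R on chromosome 5, named for its place after its values were seen, rose from 3.94, 3.83 and 3.92 to 4.91, 4.8 and 4.77 (0.93, adjusted p = 0.000418).

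RAG1 encodes the recombinase that cuts the antigen receptor genes in immature lymphocytes. It was at 5.26, 4.93 and 4.74 in the control tumors and at 8.02, 7.57 and 6.87 in the combination tumors, with a wide gap between the groups. Its log2 fold change was 2.51 (SE 0.358, adjusted p = 0.000561 in limma). With acadesine it was at 4.48, 4.76 and 6.16 and with rituximab at 6.05, 5.18 and 6.48, so that some of these tumors lay between the groups, and the combination differed from acadesine (adjusted p = 0.0015) and rituximab (adjusted p = 0.0189). Its partner and neighbour on chromosome 11, RAG2, named after its values were seen, was at 4.14, 4.22 and 3.79 against 5.8, 5.75 and 4.29, where AR3 was close to the controls. RAG2 rose by 1.23 (adjusted p = 0.0234 in limma), a call that ended with C1, C3, AR1 or AR2 left out (adjusted p from 0.0723 to 0.161).

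Of 26 measured genes of early lymphocytes and V(D)J recombination, 5 were higher and none lower, 19.2% against 1.14% of all genes, with a median log2 fold change of 0.09 beside 0.0 over all genes. The members not yet named were MYB, a transcription factor of blood progenitors, with 0.52 (adjusted p = 0.0125 in limma), and ARPP21, which is expressed in early lymphocytes, with 0.88 (adjusted p = 0.0166). MYB lost its call with C1, AR1 or AR2 left out (adjusted p from 0.0505 to 0.0882), and ARPP21 with C1, C3, AR1 or AR2 left out (adjusted p from 0.053 to 0.117). Other members did not pass, such as MME, the surface protease CD10 of B cell precursors, at 10.23, 10.18 and 10.09 against 10.09, 10 and 9.84. The mean level of the list stood at 0.39, 0.42 and 0.3 in AR1 to AR3 and at -0.03, 0.07 and -0.04 in C1 to C3, relative to the control mean. The count of 5 became 2 with C1, AR1 or AR2 left out, 3 with C3 left out and 3 with the muscle level in the model.

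A second group among the rises is known mostly from neurons. TUBB2B and TUBB3 are beta tubulins of developing and mature neurons. TUBB2B was at 5.75, 6.9 and 6.12 in the control tumors and at 8.72, 9.4 and 8.39 in the combination tumors (2.58, SE 0.313, adjusted p = 0.000175 in limma). TUBB3 was at 8.17, 8.31 and 7.79 against 9.85, 10.11 and 9.96 (1.89, SE 0.282, adjusted p = 0.000903). Both were named among rises whose groups do not overlap, and the combination tumors lay close together for TUBB3. Of 18 measured tubulin genes 4 were higher, 22.2% against 1.14% of all genes, and none lower, with a median of 0.1. The others were TUBA8 with 1.3 (adjusted p = 0.0103 in limma), which did not hold without AR2 (adjusted p = 0.0526), and TUBB2A with 0.39 (adjusted p = 0.0436), which did not hold with C1, C3, AR1 or AR2 left out (adjusted p from 0.105 to 0.26). TUBB2A is the neighbour of TUBB2B on chromosome 6 and very like it in sequence, so their probe sets may share signal. Without AR2, and likewise with the muscle level in the model, 2 tubulins were called.

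MAP1B, a protein that binds the microtubules of growing axons, was at 6.06, 5.65 and 5.33 in the control tumors and at 7.6, 7.45 and 7.44 in the combination tumors. Its log2 fold change was 1.82 (SE 0.216, adjusted p = 0.000161 in limma), 4 of 4 other probe sets moved the same way, and the tumors given 1 drug reached no higher than 5.82. KCNC2, a fast potassium channel of neurons, was at 5.09, 5.67 and 5.41 against 8.1, 7.53 and 7.63 (2.37, SE 0.298, adjusted p = 0.000263). Both had a gap of over 1 log2 unit between the groups. MLLT11, which is expressed in developing neurons and in leukemias, rose from 8.87, 9.37 and 8.65 to 10, 10.27 and 9.97 (1.11, adjusted p = 0.00342 in limma).

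Of 61 measured neuronal and axonal genes, 10 were higher and 2 lower, 16.4% and 3.28% against 1.14% and 1.33% of all genes, while the median was 0.06. With any 1 tumor left out 8 to 10 were higher and 1 or 2 lower, and 6 genes were called with the muscle level in the model. The genes that fell were CNTNAP2, a neurexin-like adhesion protein, from 6.85, 6.59 and 6.84 to 5.87, 5.37 and 5.17 (-1.29, SE 0.227, adjusted p = 0.00342 in limma), and SYNGR3, of synaptic vesicles, with -0.83 (adjusted p = 0.0118). SYNGR3 lost its call with C1, C3 or AR2 left out (adjusted p from 0.0518 to 0.106), and its values with acadesine, 6.03, 6.03 and 6.23, and with rituximab, 6.01, 6.14 and 5.89, were below every control as well.

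The other large rises shared no list. CDHR3, a cadherin-like surface protein, was at 9.06, 8.95 and 9.01 in the control tumors and at 10.39, 10.4 and 10.52 in the combination tumors, with little spread in either group (1.43, SE 0.156, adjusted p = 7e-05 in limma). C3orf52 rose from 4.16, 4.22 and 4.35 to 6.47, 6.13 and 5.46 (1.78, adjusted p = 7e-05), highest in AR1. BTBD3, which orients the dendrites of neurons, rose from 7.29, 8.09 and 7.46 to 10.1, 9.81 and 9.74 (2.27, SE 0.398, adjusted p = 0.00335). Beside these, ADGRG1, an adhesion receptor coupled to G proteins, rose by 2.04 in log2 units, the kinase gene STK32C by 1.97, NPPA, which encodes the atrial natriuretic peptide, by 1.71, and NUDT11, which acts on inositol phosphates, by 1.57, with adjusted p in limma of 0.00324, 0.000338, 0.00527 and 0.00433. All 7 of these calls held with each tumor left out in turn. RPRML and the tetraspanin CD9 rose by 1.95 and 1.65 (adjusted p = 0.00825 and 0.00727 in limma), and C2 was the highest control in both, at 7.15 and 9.39. Both calls ended with C1 or C3 left out (adjusted p from 0.0581 to 0.0743 for RPRML and from 0.0529 to 0.067 for CD9).

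**Figure D3:**
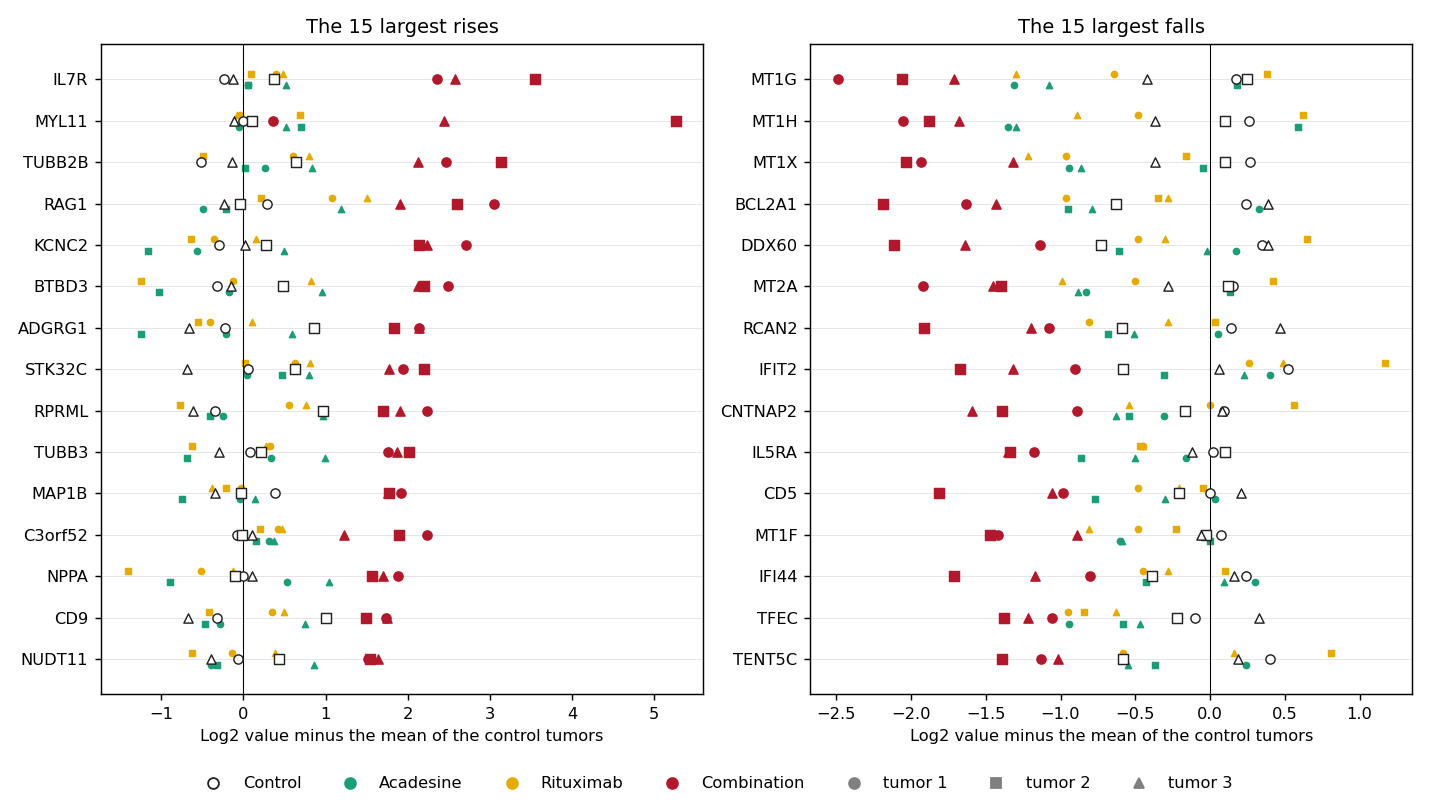
Log2 values of the 15 largest rises (left) and the 15 largest falls (right) among called genes whose groups do not overlap, each minus the mean of the 3 control tumors, on the horizontal axis. Symbols stand for tumors 1 (circle), 2 (square) and 3 (triangle), with control open, combination large and red, and the single agents small in green and yellow. MYL11 is high in AR2 and AR3 and near the controls in AR1, and MT1G of acadesine tumor 2 and rituximab tumor 2 lies at the level of the controls.

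The histone genes that were called all rose. Of 23 measured histone genes, 6 rose and none fell, 26.1% of the list against 1.14% of all genes, and in 15 of the 23 genes all combination tumors lay above all controls, beside 9.42% of all genes. The median log2 fold change was 0.29, and the mean level of the list stood at 0.36, 0.38 and 0.25 in AR1 to AR3 and at 0.04, -0.01 and -0.03 in C1 to C3. H1-2, a linker histone, was at 11.47, 11.28 and 11.5 in the control tumors and at 11.99, 12.17 and 11.94 in the combination tumors (0.61, SE 0.079, adjusted p = 0.000315 in limma). H2AX, the variant that is phosphorylated at DNA breaks, was at 11.82, 11.86 and 11.88 against 12.13, 12.15 and 12.09 (0.27, adjusted p = 0.0198), lost with C1, C3, AR1 or AR2 left out (adjusted p from 0.0588 to 0.107). H2BC15 rose by 0.97 (adjusted p = 0.037), a call that held in none of the 6 fits (adjusted p from 0.0786 to 0.148). The count was 1 without AR1 or AR2, 2 without C3, 4 without C1 or C2 and 1 with the muscle level in the model. Histone genes resemble each other closely, so a probe set may read more than 1 of them.

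Of 49 DNA replication genes 3 were higher (6.12%) and of 44 mitosis genes 3 (6.82%), beside 1.14% of all genes, with none lower and medians of 0.08 and 0.14. CDC25A, a phosphatase that opens the way into S phase, was at 8.48, 7.9 and 8.12 in the control tumors and at 9.14, 8.9 and 8.83 in the combination tumors (0.79, adjusted p = 0.0082 in limma), lost without C3 or AR1 (adjusted p from 0.0506 to 0.0533). MKI67, which encodes the protein Ki-67 of dividing cells, was at 9.86, 10.02 and 9.94 against 10.73, 10.75 and 10.24 (0.63, adjusted p = 0.0172), lost without C1, C3, AR1 or AR2 (adjusted p from 0.0743 to 0.123). AR3 was the lowest combination tumor for both. The 3 replication genes became 0 without C3, 1 without AR1 or AR2 and 2 otherwise, and the 3 mitosis genes became 0 without C1 or AR1, 1 without C3 or AR2 and 2 without C2. With the muscle level in the model 1 gene of each list was called.

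Of 28 D-type cyclins, SOX factors and their kinases 1 was called, 3.57% higher beside 1.14% of all genes. It was TFDP2, the partner of E2F factors, with 0.89 (adjusted p = 0.0151 in limma), lost without C1, C3 or AR2 (adjusted p from 0.0522 to 0.127). None of the list was called without C3 or AR2 and 3 were without C2. SOX11, the transcription factor that marks mantle cell lymphoma, was at 8.46, 9.44 and 8.56 in the control tumors and at 9.92, 9.89 and 9.51 in the combination tumors. The groups did not overlap, and it narrowly missed the threshold (0.96, SE 0.256, adjusted p = 0.0503). CCND1, the gene of cyclin D1, was at 12.29, 12.11 and 12.39 against 12.3, 12.27 and 12.29, a difference of 0.03 (SE 0.0768, adjusted p = 0.937). No inhibitor of the cell cycle was called in limma, and 3 of 13 were at an unadjusted p under 0.05, beside 2527 of all 18239 genes.

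The metallothioneins held the largest fall. They are small proteins rich in cysteine that hold zinc and copper. Their genes lie side by side on chromosome 16 and are turned on by metal, through the factor MTF1 at metal response elements, and by stress. Of 10 measured metallothioneins 5 were lower and none higher, beside 1.33% and 1.14% of all genes, and the median log2 fold change was -0.91. MT1G was at 9.67, 9.75 and 9.08 in the control tumors and at 7.01, 7.44 and 7.79 in the combination tumors (-2.09, SE 0.34, adjusted p = 0.00184 in limma). MT1X was at 8.8, 8.63 and 8.16 against 6.6, 6.5 and 7.21 (-1.76, SE 0.256, adjusted p = 0.000664). MT2A, the most widely expressed member, was at 9.64, 9.61 and 9.21 against 7.57, 8.09 and 8.04 (-1.58, SE 0.268, adjusted p = 0.0028). Each was named among falls whose groups do not overlap, and AR1, with the muscle level of the controls, was the lowest tumor for MT1G and MT2A.

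MT1F was at 9.84, 9.74 and 9.71 in the control tumors and at 8.35, 8.3 and 8.88 in the combination tumors (-1.26, SE 0.167, adjusted p = 0.000349 in limma). MT1H was at 6.71, 6.55 and 6.08 against 4.4, 4.57 and 4.77 (-1.87, SE 0.385, adjusted p = 0.0105), lost without C1, AR1 or AR2 (adjusted p from 0.0511 to 0.0655), and the other 4 calls held with each tumor left out. All 5 held with the muscle level in the model. MT3, the form of the brain, was at 4.42, 4.21 and 4.31 against 4.6, 4.76 and 4.73 and did not pass (0.38, adjusted p = 0.317). These genes are near copies of each other, so that a probe set named for 1 of them may bind several, and the 5 falls are not 5 separate measurements. No gene of zinc and iron handling was called in limma, and the median was -0.02. At an unadjusted p under 0.05 were 6 of 34, beside 2527 of all 18239 genes.

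The tumors given 1 drug were split for the metallothioneins. MT1G was at 8.19, 9.68 and 8.42 with acadesine and at 8.86, 9.88 and 8.2 with rituximab, so that tumor 2 of each group was at the level of the controls and tumors 1 and 3 lay between the controls and the combination. MT1X was at 7.59, 8.48 and 7.67 and 7.57, 8.37 and 7.31, with the same tumors high. In limma the combination differed from acadesine and from rituximab in MT1G (adjusted p = 0.0371 and 0.0143), MT1X (0.0194 and 0.04), MT2A (0.038 and 0.0147) and MT1F (0.00776 and 0.017). In MT1H it differed from rituximab (0.0261), and the difference from acadesine did not pass (0.117). The mean level of the list stood at -1.06, -0.93 and -0.79 in AR1 to AR3 and at 0.19, 0.08 and -0.27 in C1 to C3.

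The metal response element, searched as TGCACNC or TGCGCNC on both strands in the 250 bases before the start of transcription, was found in 35.6% of 14492 tested genes with a promoter in RefSeq, and 4 or more matches were found in 0.559% of them. One match or more was found in 38.8% of the 196 promoters of genes that fell and 45.0% of the 169 of genes that rose. Promoters of metallothioneins that fell are shown because they are packed with this element (RefSeq, GRCh38.p14, plus strand, with matches on either strand in capitals): 4 matches in MT1X (chr16:56682220-56682469), 7 in MT2A (chr16:56608334-56608583) and 8 in MT1H (chr16:56669564-56669813).
MT1X: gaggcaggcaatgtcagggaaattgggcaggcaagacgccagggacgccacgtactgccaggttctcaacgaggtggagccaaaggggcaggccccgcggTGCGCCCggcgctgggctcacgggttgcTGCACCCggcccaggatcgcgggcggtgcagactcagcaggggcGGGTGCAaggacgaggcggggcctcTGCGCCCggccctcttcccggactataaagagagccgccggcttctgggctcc
MT2A: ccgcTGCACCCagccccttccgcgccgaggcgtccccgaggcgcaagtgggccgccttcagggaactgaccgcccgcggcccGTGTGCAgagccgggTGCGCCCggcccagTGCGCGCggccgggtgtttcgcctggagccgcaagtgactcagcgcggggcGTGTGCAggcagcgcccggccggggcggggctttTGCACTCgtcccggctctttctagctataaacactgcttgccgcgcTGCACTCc
MT1H: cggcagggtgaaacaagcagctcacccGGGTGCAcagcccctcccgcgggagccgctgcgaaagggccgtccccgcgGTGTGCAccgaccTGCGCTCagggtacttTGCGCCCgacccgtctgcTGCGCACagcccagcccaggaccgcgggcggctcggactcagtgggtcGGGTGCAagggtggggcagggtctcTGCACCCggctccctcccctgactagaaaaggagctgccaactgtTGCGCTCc
MT1B and MT4, which were measured and not called, had 3 matches each. A match is a run of letters and not a tested binding site, and overlap between motifs was not searched.

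Genes that interferon induces made the second group of falls. Of 62 measured interferon effectors 19 were lower and none higher, 30.6% against 1.33% of all genes, 55 had a negative change, and the median log2 fold change was -0.49. The mean level of the list stood at -0.35, -0.76 and -0.41 in AR1 to AR3 and at 0.12, -0.23 and 0.11 in C1 to C3, so AR2 was the lowest combination tumor and C2 the lowest control. The count was 6 without C3 or AR2, 9 without C1 and 33 without C2. With the muscle level in the model 2 members were called and the median was -0.29. With AR1 alone none was called and the median was -0.31, with 55 again negative.

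The falls that held with each tumor left out in turn included those of the SP100 family, nuclear proteins that sit in PML bodies or read chromatin. SP110, the fall with the smallest p of all, was at 9.84, 9.67 and 9.9 in the control tumors and at 9.07, 8.77 and 8.99 in the combination tumors (-0.86, SE 0.103, adjusted p = 0.000161 in limma). SP100 was at 9.46, 9.69 and 9.65 against 8.92, 8.67 and 8.96 (-0.75, adjusted p = 0.000561), with 8 of 8 other probe sets moving the same way. SP140, the neighbour of SP110 on chromosome 2, was at 9.79, 9.7 and 9.89 against 9.22, 8.87 and 9.15 (-0.71, adjusted p = 0.0013). In all 3 genes every combination tumor was below every other tumor of the study, and the tumors given 1 drug lay between 9.43 and 9.89.

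IFI44, which interferon induces strongly, was at 9.29, 8.66 and 9.21 in the control tumors and at 8.25, 7.34 and 7.88 in the combination tumors (-1.23, SE 0.212, adjusted p = 0.00322 in limma), and 5 of 5 other probe sets moved the same way. IFIT2, which blocks the translation of viral RNA, was at 6.87, 5.77 and 6.41 against 5.45, 4.68 and 5.03 (-1.3, adjusted p = 0.0114), lost without C1, C3 or AR2 (adjusted p from 0.0608 to 0.0908). C2 was the lowest control in both, and IFIT2 was highest of all 12 tumors in rituximab tumor 2, at 7.52.

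Of 25 interferon receptors, STATs and IRFs, which carry the signal of interferon, 1 was higher and 1 lower, with a median of -0.06. That was 4% each way, beside 1.14% higher and 1.33% lower of all genes. IRF8, a factor of germinal center B cells and of myeloid cells, fell from 11.79, 12.07 and 12.01 to 11.48, 11.25 and 11.6 (-0.51, SE 0.0888, adjusted p = 0.00322 in limma). IRF4, a factor of activated B cells and plasma cells, rose from 9.88, 10.18 and 9.97 to 10.31, 10.53 and 10.33 (0.38, adjusted p = 0.0352), a call that held only without C2 (adjusted p from 0.0582 to 0.23 in the other 5 fits), so that 1 gene of the list was called in those. The groups overlapped for neither.

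Sensors of foreign nucleic acid fell too. Of 23 measured RNA and DNA sensors 5 were lower and none higher, 21.7% of the list against 1.33% of all genes, with a median of -0.38. The count was 2 without C1, C3 or AR2, 3 without AR3 and 1 with the muscle level in the model. DDX60, a helicase that helps to sense viral RNA, was at 9.42, 8.34 and 9.46 in the control tumors and at 7.93, 6.96 and 7.43 in the combination tumors (-1.63, SE 0.292, adjusted p = 0.00407 in limma). AIM2, which senses DNA in the cytosol and builds an inflammasome, was at 10.55, 10.11 and 10.69 against 9.6, 9.09 and 9.18 (-1.16, SE 0.179, adjusted p = 0.00123). AR1 was the highest combination tumor for both. A position of every combination tumor below every control was a condition for naming DDX60 among the largest falls. The groups also lay apart in 445 of the 450 called genes. TLR7, a receptor of RNA in endosomes, was at 9.28, 9.23 and 9.31 against 8.65, 8.27 and 8.9 (-0.67, adjusted p = 0.0169 in limma), lost without C1, C3 or AR2 (adjusted p from 0.0655 to 0.132). TLR8, its neighbour on chromosome X, fell with -0.8 (adjusted p = 0.0329), lost without C1, C3, AR2 or AR3 (adjusted p from 0.0551 to 0.208).

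Of 19 Toll-like receptors and adaptors 3 were lower, 15.8% beside 1.33% of all genes. The third was TLR2, a receptor of bacterial lipoproteins, at 7.32, 7.2 and 7.76 against 6.54, 6.28 and 6.71 (-0.92, adjusted p = 0.00669 in limma), lost without C3 or AR2 (adjusted p from 0.0554 to 0.0608). None of that list was called without C3 or AR2 and 1 without C1. Of 17 genes of inflammasomes and inflammatory caspases 4 were lower and none higher, 23.5% lower beside 1.33% of all genes, with a median of -0.18. CASP1, the protease that matures interleukin 1 beta, was at 10.72, 10.58 and 10.62 in the control tumors and at 10.05, 9.99 and 10.33 in the combination tumors (-0.52, adjusted p = 0.00537 in limma), and 8 of 8 other probe sets moved the same way. CARD16, which lies next to CASP1 on chromosome 11 and resembles its first domain, was at 8.44, 8.43 and 8.2 against 7.6, 7.34 and 7.9 (-0.74, adjusted p = 0.00669). Of the 6 fits, the one without AR2 lost both calls (adjusted p = 0.0501 for CASP1 and = 0.0605 for CARD16), and there 1 member of the list was called.

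The interferon-stimulated response element, searched on both strands as GAAA followed by any 2 bases and GAAA again, in the 250 bases before the start, was present in 12.8% of the 196 promoters of genes that fell, 3.55% of the 169 of genes that rose and 3.52% of all 14492. In the list of interferon effectors it was present in 28 of 50 promoters, called or not, and outside the interferon, HLA class I and sensor lists 9 of 170 promoters of genes that fell held it (5.29%). The promoters of IFI44 (chr1:78649539-78649788, plus strand), of the sensors DDX60 (chr4:168318753-168319002, minus strand) and AIM2 (chr1:159076767-159077016, minus strand) and of BCL2A1 (chr15:79971197-79971446, minus strand), which is on none of those lists and is described below, are shown to set the matches side by side. They are read in the direction of the gene (for IFI44 the window is 1 of 2 listed), with matches in capitals (the element on the other strand reads as TTTC, any 2 bases and TTTC; RefSeq, GRCh38.p14).
DDX60: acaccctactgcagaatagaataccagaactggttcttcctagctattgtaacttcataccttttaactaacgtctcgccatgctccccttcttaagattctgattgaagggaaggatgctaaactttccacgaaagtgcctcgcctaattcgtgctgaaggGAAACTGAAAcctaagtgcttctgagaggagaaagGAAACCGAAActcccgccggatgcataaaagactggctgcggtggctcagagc
IFI44: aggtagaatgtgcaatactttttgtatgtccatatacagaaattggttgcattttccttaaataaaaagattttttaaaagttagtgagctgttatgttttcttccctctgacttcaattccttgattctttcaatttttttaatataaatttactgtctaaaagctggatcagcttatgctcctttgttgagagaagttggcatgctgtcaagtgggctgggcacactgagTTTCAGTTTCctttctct
AIM2: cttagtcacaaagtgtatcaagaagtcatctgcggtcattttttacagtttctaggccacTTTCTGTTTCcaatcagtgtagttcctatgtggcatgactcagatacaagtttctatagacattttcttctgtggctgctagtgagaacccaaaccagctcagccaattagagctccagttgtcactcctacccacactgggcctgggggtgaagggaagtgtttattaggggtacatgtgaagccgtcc
BCL2A1: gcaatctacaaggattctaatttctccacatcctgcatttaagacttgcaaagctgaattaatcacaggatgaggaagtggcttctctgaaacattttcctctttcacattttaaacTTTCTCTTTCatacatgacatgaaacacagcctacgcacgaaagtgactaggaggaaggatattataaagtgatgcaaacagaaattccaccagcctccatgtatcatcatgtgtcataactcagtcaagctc
DDX60 holds 2 matches and the others 1 each, and the match lies 9 bases before the start in IFI44, 124 in BCL2A1 and 181 in AIM2.

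Genes that load peptides on HLA class I molecules fell by smaller steps. Of 20 measured genes 6 were lower and none higher, 30% of the list against 1.33% of all genes, with a median of -0.23. TAP1, a subunit of the transporter that brings peptides to class I molecules, was at 10.35, 10.17 and 10.43 in the control tumors and at 9.83, 9.63 and 9.91 in the combination tumors (-0.53, adjusted p = 0.00615 in limma). HLA-F, a class I molecule outside the classical set, was at 10.09, 10.03 and 10.37 against 9.52, 9.18 and 9.59 (-0.74, adjusted p = 0.00669). Of its other probe sets 5 of 9 moved the same way, beside 62.7% over all genes. The groups did not overlap for either gene. Both calls ended without C3 or AR2 (adjusted p from 0.054 to 0.0546 for TAP1 and from 0.0605 to 0.0608 for HLA-F), and none of the 20 genes was called in these fits or with the muscle level in the model. Of 16 HLA class II genes none were called in limma, and the median was -0.06. At an unadjusted p under 0.05 were 3 of them, beside 2527 of all 18239 genes.

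NF-kB is the transcription factor that CD40 and other receptors of the TNF family switch on in B cells. Of 44 measured subunits, inhibitors and targets 11 were lower and none higher, beside 1.33% and 1.14% of all genes, 36 had a negative change, and the median was -0.33. The mean level of the list stood at -0.32, -0.49 and -0.25 in AR1 to AR3 and at -0.02, -0.07 and 0.09 in C1 to C3. With AR1 alone 36 were again negative, with a median of -0.24 and none called. The count was 3 without AR2, 4 without C3, 6 without C1, 7 without AR3 and 1 with the muscle level in the model.

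BCL2A1, a relative of BCL2 that blocks cell death and a target of NF-kB, was at 6.79, 5.92 and 6.94 in the control tumors and at 4.92, 4.36 and 5.12 in the combination tumors. Its log2 fold change was -1.75 (SE 0.304, adjusted p = 0.00324 in limma), and the tumors given 1 drug lay between 5.59 and 6.88, above every combination tumor. CD44, a receptor of hyaluronan, was at 10.57, 10.44 and 10.75 against 9.76, 9.39 and 9.82 (-0.93, SE 0.136, adjusted p = 0.000691), with 9 of 9 other probe sets moving the same way. CD40, the receptor through which T cells drive B cells, was at 10.26, 10.24 and 10.48 against 9.83, 9.56 and 9.73 (-0.62, SE 0.103, adjusted p = 0.00222). None of these 3 overlapped between the groups, which was a condition for naming BCL2A1 and held in 445 of the 450 called genes. CD83, a surface protein of activated B cells, fell with -0.77 (adjusted p = 0.00615 in limma), lost without AR2 (adjusted p = 0.0537).

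Of 25 genes of CD40 and TNF receptor signalling 5 were lower and none higher, 20% lower beside 1.33% of all genes, although the median was -0.02. The count was 1 without C3 or AR2, 2 without AR1 and 3 without C1. CD27, a TNF receptor of memory B cells, was at 9.72, 9.94 and 9.87 in the control tumors and at 9.46, 9.12 and 9.48 in the combination tumors (-0.49, adjusted p = 0.015 in limma), lost without C3 or AR2 (adjusted p from 0.0743 to 0.122). The kappaB element, searched by its consensus on both strands, was present in 18.9% of the promoters of genes that fell, 13.0% of those of genes that rose and 14.5% of all, and in 51.4% of the 37 promoters of the NF-kB list.

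**Figure D4:**
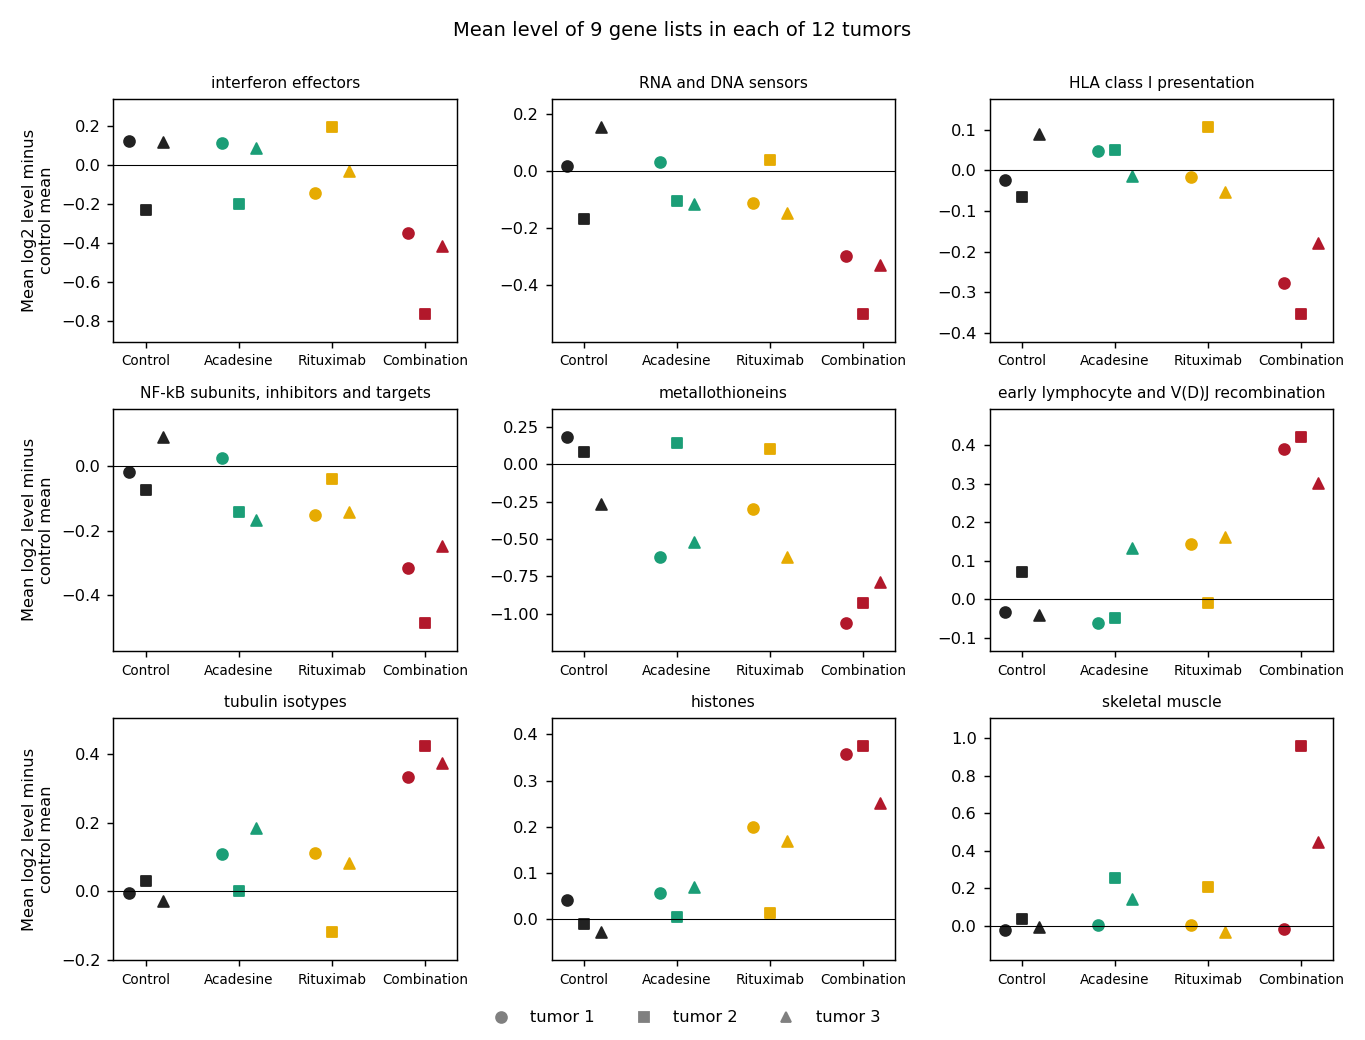
Mean log2 level of the members of 9 gene lists in each of the 12 tumors, minus the mean of the 3 control tumors, by group on the horizontal axis, with symbols for tumors 1, 2 and 3. Interferon effectors, sensors, HLA class I and NF-kB genes are lowest in AR2 (-0.76 for the interferon effectors), metallothioneins in AR1 (-1.06), and the muscle level is 0.96 in AR2 and -0.02 in AR1.

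Surface antigens of the mature B cell moved singly. Of 30 measured, 1 was higher, CD9, and 3 were lower (3.33% and 10%, beside 1.14% and 1.33% of all genes). The median was -0.04, and 1 was called without C1 or C3, 2 without AR1 or AR2. CD5, the T cell marker that mantle cell lymphoma also carries, was at 7.02, 6.81 and 7.23 in the control tumors and at 6.04, 5.21 and 5.96 in the combination tumors (-1.29, SE 0.222, adjusted p = 0.00322 in limma), and the tumors given 1 drug, from 6.25 to 7.05, were above every combination tumor. MS4A1, the gene of the target of rituximab, did not pass, although its groups did not overlap: the difference was -0.24 (SE 0.1, adjusted p = 0.27). CD52 fell with -0.42 (adjusted p = 0.0324), lost without C1, C3, AR1 or AR2 (adjusted p from 0.101 to 0.233). No complement regulator was called in limma, and 1 of 9 was at an unadjusted p under 0.05, beside 2527 of all 18239 genes.

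Of 34 genes of B cell receptor signalling 1 was higher and 1 lower (2.94% each, beside 1.14% and 1.33% of all genes), with a median of -0.13. BANK1, an adaptor between the receptor and calcium, was at 9.33, 8.8 and 9.44 in the control tumors and at 8.21, 8.02 and 8.75 in the combination tumors (-0.86, adjusted p = 0.0226 in limma), lost without C1, C3, AR1 or AR2 (adjusted p from 0.094 to 0.158). FYN, a kinase of the SRC family, rose by 0.52 (adjusted p = 0.028), lost without C3, AR2 or AR3 (adjusted p from 0.0825 to 0.181). None of the list was called without C3 or AR2, 1 without AR1 and 5 without C2.

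RCAN2, an inhibitor of calcineurin, was at 8.85, 8.12 and 9.18 in the control tumors and at 7.63, 6.8 and 7.51 in the combination tumors (-1.4, SE 0.254, adjusted p = 0.00433 in limma). MEF2C, a transcription factor that calcium signals switch on in B cells, was at 8.29, 7.84 and 8.19 against 7.31, 6.78 and 7.41 (-0.94, adjusted p = 0.00825), lost without C1, C3 or AR2 (adjusted p from 0.0558 to 0.0703). Both were lowest in AR2. Of 37 genes of calcium, calcineurin, NFAT and MEF2 signalling 3 were lower and none higher, 8.11% lower beside 1.33% of all genes. The median was -0.02, and 1 was called without C1, C3 or AR2.

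Transcription factors of B cells went both ways, 3 higher and 4 lower of 35 (8.57% and 11.4%, beside 1.14% and 1.33% of all genes), with a median of 0.07. The 7 calls became 2 without C1 or AR2, 3 without C3 or AR1 and 2 with the muscle level in the model. BHLHE41, a factor of memory B cells, was at 9.9, 9.69 and 10.01 in the control tumors and at 9.3, 8.91 and 9.11 in the combination tumors (-0.76, SE 0.112, adjusted p = 0.000831 in limma). TCF3, the E2A factor that early B cells need, was at 11.35, 11.58 and 11.2 against 11.76, 11.9 and 11.76 (0.43, adjusted p = 0.0167), lost without C1, C3 or AR2 (adjusted p from 0.0696 to 0.124).

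Receptors for cytokines and homing signals held several calls. IL5RA, the receptor of interleukin 5 on eosinophils and some B cells, was at 6.49, 6.57 and 6.35 in the control tumors and at 5.29, 5.13 and 5.12 in the combination tumors (-1.29, SE 0.176, adjusted p = 0.000436 in limma), and the tumors given 1 drug lay between the groups, from 5.61 to 6.31. ACVR2B, a receptor of activin, rose from 6.67, 7.09 and 6.85 to 8.0, 8.04 and 7.71 (1.05, SE 0.177, adjusted p = 0.00275). IL13RA1, a receptor chain of interleukin 13, fell from 6.82, 6.05 and 6.95 to 5.28, 5.37 and 5.78 (-1.13, adjusted p = 0.00825), lost without C1, C3 or AR2 (adjusted p from 0.0525 to 0.0724). Of 32 receptors 2 were higher and 4 lower (6.25% and 12.5%, beside 1.14% and 1.33% of all genes). The median was -0.07, and 3 were called without C1, C3 or AR2.

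CXCR5, which leads B cells to follicles, was at 9.04, 9.46 and 9.44 in the control tumors and at 8.63, 8.41 and 8.64 in the combination tumors (-0.76, SE 0.137, adjusted p = 0.00433 in limma). GPR183, a receptor of oxysterols that guides B cells within the follicle, was at 10.79, 11.2 and 10.73 against 10.39, 10.27 and 10.29 (-0.59, SE 0.114, adjusted p = 0.00678). CXCR4, which holds B cells in the bone marrow, went the other way, at 11.78, 11.69 and 11.48 against 12.1, 12.04 and 12 (0.39, SE 0.103, adjusted p = 0.0447), and this call held in none of the 6 fits (adjusted p from 0.0558 to 0.24). These were the 3 genes called of 35 chemokines and homing receptors, 2.86% higher and 5.71% lower beside 1.14% and 1.33% of all genes. The median of the list was -0.12.

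Of 60 genes of the non-muscle actin skeleton 10 were lower and 3 higher, 16.7% and 5% beside 1.33% and 1.14% of all genes, with a median of -0.1. VCL, which anchors actin at adhesions, was at 10.53, 10.08 and 10.56 in the control tumors and at 9.85, 9.57 and 9.63 in the combination tumors (-0.7, SE 0.122, adjusted p = 0.00324 in limma). The formin gene FMNL2 was at 5.06, 5.95 and 5.23 against 6.9, 6.55 and 6.64 (1.29, SE 0.237, adjusted p = 0.00486). The balance of falls and rises was not kept in every fit: 2 were lower and 2 higher without C1 or C3, 3 lower and 2 higher without AR1, 2 lower and 1 higher without AR2, 5 lower and 2 higher without AR3, and 12 lower and 3 higher without C2. With the muscle level in the model 1 of the 60 was called.

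Of falls outside the lists, CSTB, an inhibitor of lysosomal proteases, went from 10.83, 10.67 and 10.69 in the control tumors to 10.08, 9.81 and 9.98 in the combination tumors (-0.77, SE 0.0996, adjusted p = 0.000315 in limma), and LHFPL2 from 9.21, 9.35 and 9.66 to 8.61, 8.25 and 8.38 (-1.0, SE 0.133, adjusted p = 0.000364). TENT5C, a poly(A) polymerase of plasma cells, fell with -1.18 (adjusted p = 0.0258), lost without C1, C3, AR1 or AR2 (adjusted p from 0.0685 to 0.147). TFEC, a factor of the MITF family, fell from 5.25, 5.13 and 5.68 to 4.29, 3.97 and 4.13 (-1.22, SE 0.173, adjusted p = 0.000561 in limma). The tumors given 1 drug, from 4.4 to 4.88, were below every control in TFEC as well.

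Acadesine can activate AMPK and enters the purine pathway, and the study cites evidence that part of its effect on tumors could be independent of AMPK. PRKAA1, a catalytic subunit of AMPK, was at 6.17, 5.9 and 5.99 in the control tumors and at 5.42, 5.15 and 5.31 in the combination tumors (-0.73, SE 0.167, adjusted p = 0.0214 in limma). It was at 5.52, 5.51 and 5.75 with acadesine and at 5.39, 5.7 and 5.74 with rituximab, below every control too, and the combination was not called against either (adjusted p = 0.416 and 0.399). The PRKAA1 call was lost without C1, C3, AR2 or AR3 (adjusted p from 0.0537 to 0.126), and it was the only call among 23 AMPK subunits and upstream kinases (4.35% lower, beside 1.33% of all genes). ADK, the kinase that phosphorylates acadesine, was at 9.34, 9.39 and 9.48 against 9.36, 9.41 and 9.42, a difference of -0.01 (SE 0.0908, adjusted p = 0.987), and ATIC, the enzyme that uses the product, at 11.17, 11.17 and 10.93 against 10.96, 11.02 and 10.9 (-0.13, SE 0.0807, adjusted p = 0.522). Of 30 genes of purine synthesis and acadesine handling 2 were lower (6.67%), among them AMPD3, which turns AMP into IMP, with -0.85 (adjusted p = 0.01 in limma), lost without C1, C3 or AR2 (adjusted p from 0.0567 to 0.0848). None of the list was called without C1, C3 or AR2, 1 without AR3 and 3 without AR1. No gene of the AMPK and purine lists was called with the muscle level in the model.

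TSC1, a brake on mTOR, was at 8.14, 8.17 and 8.04 in the control tumors and at 8.91, 8.83 and 8.59 in the combination tumors (0.66, SE 0.119, adjusted p = 0.00433 in limma), with 3 of 3 other probe sets moving the same way. Of 34 mTOR brakes and amino acid stress genes 3 were higher and none lower, 8.82% higher beside 1.14% of all genes. The median was 0.05, and 1 was called without C1, C3 or AR2. TXNIP, which limits glucose uptake, was at 11.37, 11.12 and 11.02 against 10.82, 10.49 and 10.38 (-0.61, adjusted p = 0.0118 in limma), lost without C1, AR2 or AR3 (adjusted p from 0.0643 to 0.0831). MLXIP, a factor that drives it, was at 8.13, 8.35 and 8.15 against 8.9, 8.73 and 8.72 (0.57, adjusted p = 0.0116), lost without C1, C3 or AR1 (adjusted p from 0.0603 to 0.0685). ARRDC4, an alpha-arrestin like TXNIP, fell with -0.49 (adjusted p = 0.0413), lost without C1, C3, AR1 or AR2 (adjusted p from 0.108 to 0.233). These were the 3 genes called of 9 of the TXNIP list, 1 higher and 2 lower (11.1% and 22.2%, beside 1.14% and 1.33% of all genes). None was called without C1 and 1 without C3, AR1 or AR2.

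KLF7, a zinc finger factor, rose from 7.22, 7.96 and 7.39 to 8.64, 8.76 and 8.8 (1.21, SE 0.192, adjusted p = 0.0015 in limma), and KLF11 of the same family fell from 6.12, 6.34 and 5.9 to 5.36, 5.11 and 4.96 (-0.98, SE 0.178, adjusted p = 0.00442). KLF11 was at 5.41, 5.87 and 5.8 with acadesine and at 5.4, 5.38 and 5.47 with rituximab, below every control. Of 17 KLF factors 1 was higher and 3 lower (5.88% and 17.6%, beside 1.14% and 1.33% of all genes). Of these 4 calls 2 were left when C2, C3 or any combination tumor was left out.

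In the BCL2 family, with 25 genes measured, 1 was higher and 1 lower (4% each, beside 1.14% and 1.33% of all genes). BIK, a protein that promotes death, rose by 0.72 (adjusted p = 0.0389 in limma) beside the fall of BCL2A1. The BIK call held only without AR1 (adjusted p from 0.0747 to 0.236 in the other 5 fits). BCL2 was at 9.1, 9.13 and 8.96 in the control tumors and at 8.69, 8.74 and 8.85 in the combination tumors, apart but short of the test (-0.31, adjusted p = 0.142). Of 27 death receptors, caspases and IAPs 3 were lower, 11.1% beside 1.33% of all genes, and none higher. CFLAR, an inhibitor of caspase 8, was at 9.32, 9.63 and 9.43 against 8.8, 9.07 and 9.04 (-0.49, adjusted p = 0.0272 in limma), lost without C2, C3, AR1 or AR2 (adjusted p from 0.0606 to 0.149). FAS, a death receptor, was at 6.49, 6.6 and 6.47 against 5.68, 5.98 and 5.82 (-0.7, adjusted p = 0.0449), a call that held in none of the 6 fits (adjusted p from 0.0908 to 0.187). FAS was also the only call among 31 targets of p53. At most 1 of the 27 was called with any tumor left out, and none of either list with the muscle level in the model.

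Several broad programs held no called gene in limma. Of 65 cytosolic ribosomal proteins 2 were at an unadjusted p under 0.05 (median 0.02), of 38 splicing factors 6 (0.04), of 38 autophagy genes 5 (0.0), of 28 heat shock genes 3 (-0.03), of 21 targets of NRF2 6 (-0.01) and of 19 genes of the MYC and MAX network 5 (0.04). Over all genes 2527 of 18239 were below that level. Of 45 genes of oxidative phosphorylation 3 were lower and none higher, 6.67% lower beside 1.33% of all genes. In this list 37 were negative, the median was -0.06, and none was called without C1, C3, AR1 or AR2.

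Other programs held 1 to 3 calls. Of 39 genes of glycolysis and hypoxia 1 was lower (2.56%), and of 34 of cholesterol and fatty acid synthesis 1 was higher (2.94%). Of 35 immediate early genes 2 were higher (5.71%) and 1 lower (2.86%), and of 45 Wnt genes 1 was higher and 1 lower (2.22% each). The medians were -0.03, -0.02, 0.0 and 0.05, and over all genes 1.14% were higher and 1.33% lower. These 7 calls were NDRG1 (-0.7, adjusted p = 0.0416 in limma), SCAP (0.62, 0.0288), SPRY1 (0.9, 0.0414), SPRED2 (0.8, 0.0442), KLF10 (-0.72, 0.0238), APCDD1 (0.92, 0.0187) and WNT10A (-0.77, 0.0332). Each was lost without C3, AR1 or AR2 and also without 1 or more other tumors (adjusted p from 0.0502 to 0.214 in the fits that lost a call). SPRY1 held in none of the 6 fits, NDRG1, SCAP, SPRED2 and KLF10 in 1 each, and APCDD1 and WNT10A in 2 each. The lists together held 1511 genes and 151 of the 450 calls, so 299 called genes belonged to none of them.

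**Figure D5:**
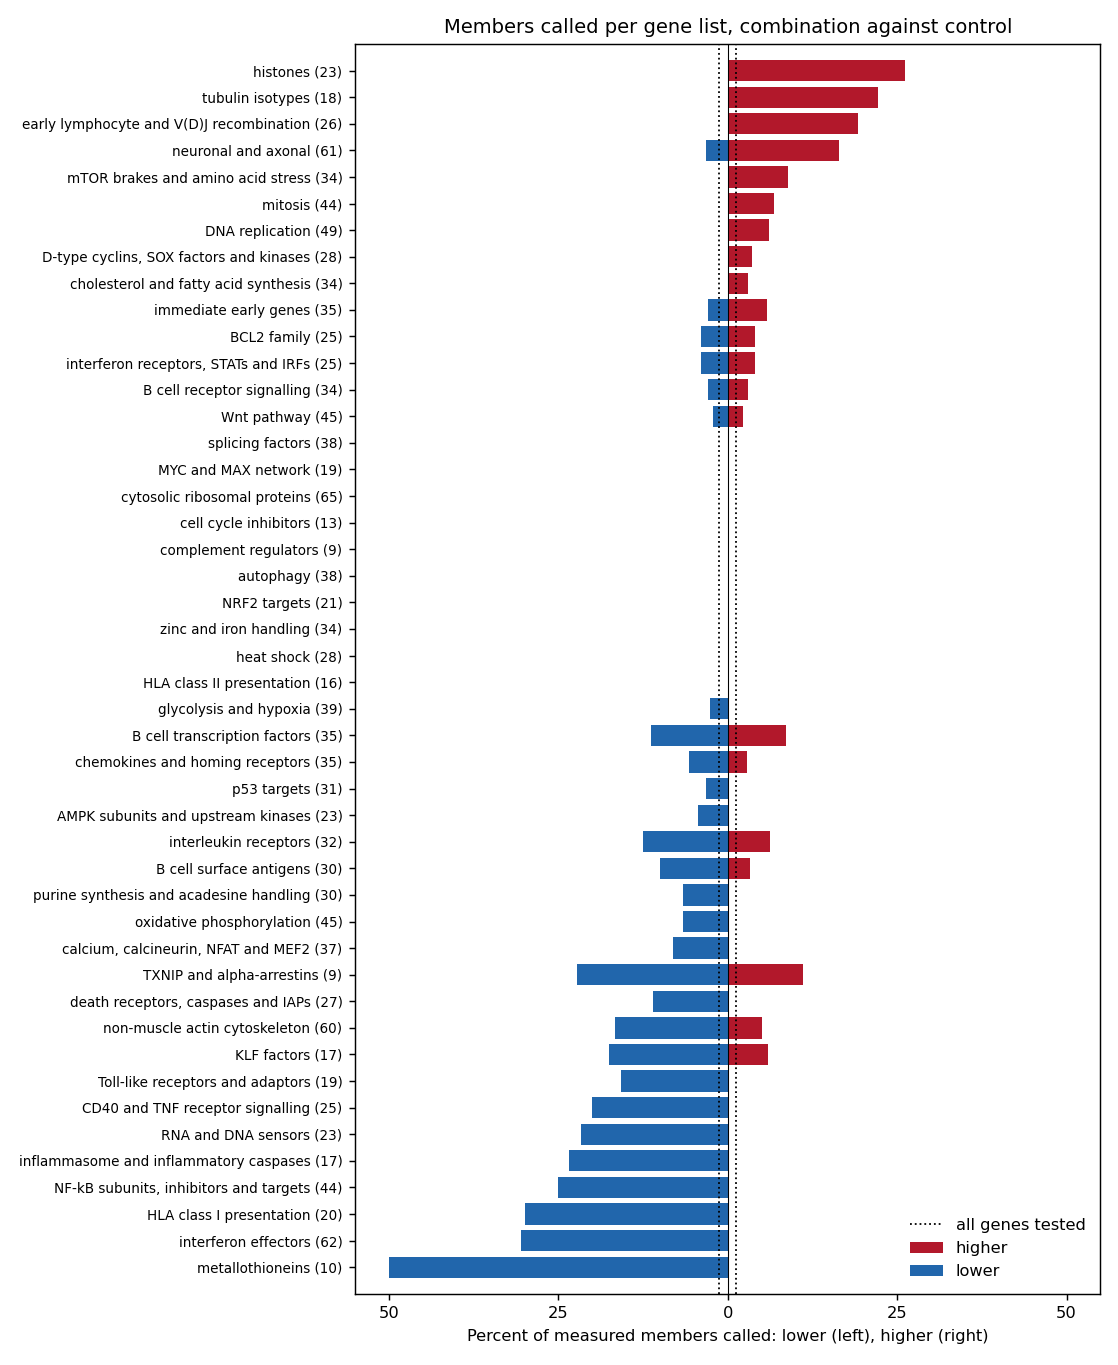
Percent of the measured members of each of 46 gene lists that were called lower (blue, to the left) or higher (red, to the right) in combination against control tumors, with the number measured in brackets. The dotted lines mark all genes tested (1.33% lower, 1.14% higher), and metallothioneins (5 of 10 lower), interferon effectors (30.6% lower), HLA class I presentation (30% lower) and histones (26.1% higher) stand among the longest bars.

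Some called genes lay next to each other on the chromosomes. Among genes in RefSeq order, 45 of the 450 called genes stood in 21 runs of neighbouring called genes that moved the same way, 13 runs of 29 genes lower and 8 runs of 16 genes higher. Whether that is more than calls placed at random would give was not tested, so the count is not read as clustering. The longest run was TAP2, PSMB8, TAP1 and PSMB9 on chromosome 6, which code for the peptide transporter and for subunits of the immunoproteasome and span 38.0 kb. All 4 were lower, and PSMB9 is named for its place after its values were seen. The calls of TAP1 and TAP2 were lost without C3 or AR2, and those of PSMB8 and PSMB9 without C1, C3 or AR2. MT1F, MT1G and MT1H lay within 13.2 kb on chromosome 16, and RAG1 and RAG2 within 87.9 kb on chromosome 11. Several of these neighbours are copies of each other, which probe sets can mix up. By chromosome the share of genes called ran from 1.39% on chromosome 19 to 3.86% on chromosome 2, and on chromosome 19, 16 of 1298 genes were higher and 2 lower.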

How the data were processed

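RNA of 3 tumors from each of 4 groups was hybridised to Affymetrix HT HG-U219 arrays, 1 array per tumor. The deposited values are log2 expression per probe set, which the authors normalized with RMA; its version, the annotation release and the genome build are not given in the sources used here. Probe sets with 1 gene symbol were kept, the one with the highest mean over the 12 arrays stood for its gene, and 18239 genes were tested. A model with 4 groups was fitted in limma 3.58.1 (R 4.3.3; lmFit, eBayes with trend), and p-values were adjusted by Benjamini-Hochberg over all genes, with a threshold of 0.05. limma stands in for the test of the study's methods, whose thresholds of 0.2 and 1.4-fold are an alternative. The fit was tested on simulated data. The labels tie replicates to separate samples of a group.

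With 3 tumors a group the smallest p of an exact permutation test is 0.1, so single values were not tested on their own. No calls of probe sets above background were used, and the number of arrays limits the precision. Replicate numbers were checked for pairing, with a correlation of 0.1 as the cut. The deviations of equally numbered control and combination tumors correlated at 0.04, 0.102 and 0.08 over genes, and those of the other pairs at -0.08 to 0.01. Equally numbered tumors were thus the most alike, and C2 with AR2 just passed the cut. The correlations were weak and the main fit did not pair the tumors, so a fit with the tumor number as a block is given below. Named genes are the 15 largest rises and falls whose groups do not overlap, the 5 smallest p in each direction, up to 4 members of each list in each direction, and 9 genes tied to the drugs or the lymphoma. Others are marked as named after their values were seen. The members, gene lists and rules were chosen with earlier results of these data known. The muscle level, used as a covariate, is the mean of the muscle list. Promoter sequences and gene order came from RefSeq (GRCh38.p14), and 14492 tested genes matched a promoter. Tables and figures used Python 3.11.15, pandas 2.3.3, numpy 2.4.6 and matplotlib 3.10.9.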

Additional observations from a re-analysis of the deposited data

How the results depend on the processing

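The count of 450 called genes (208 higher and 242 lower) was 268 (120 and 148) with the mean of all probe sets of a gene, 303 (144 and 159) with the probe set of highest SD, 261 (128 and 133) without the intensity trend, and 665 (328 and 337) at the thresholds of the study's methods. It stayed between 427 and 565 with the other 6 planned settings. With 1 tumor left out it ran from 140 to 576, from 73 to 258 for genes called higher and from 56 to 318 for genes called lower. With the tumor number as a replicate block it was 481 (223 and 258), while the main fit did not pair the tumors. Settings added after seeing the data gave 99 (71 and 28) with the muscle covariate, 18 (14 and 4) without combination tumors 2 and 3, and 39 (29 and 10) without these and tumor 2 of each single agent; fewer samples enter the last 2 fits, and AR1 is then assumed to vary like the other groups. Of the calls of named genes, 38 were lost with the mean of all probe sets, 24 without the trend, 21 with the probe set of highest SD and 19 with robust variance, the last including MT1G, MT2A, MT1H, DDX60, TUBB3, BTBD3 and ADGRG1. The other planned settings lost 6 or fewer each, leaving out tumors aside. SOX11 passed the threshold with the probe set of highest SD, array weights, cyclic loess, median centring, 6 arrays or the thresholds of the methods. Of the genes named, 3 changed sign under a setting: TNNI2 to -0.11 where AR1 alone stood for the combination, CCND1, which ran from -0.05 to 0.09 with 1 tumor left out, and ADK, which ran from -0.04 to 0.03 there and was 0.01 after cyclic loess. CCND1 and ADK were called in none of these fits. The cause of these shifts was not tested beyond that.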
